A study of Mus musculus with 8 samples.

Results

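The genes described here are the 139 Zfp genes of mouse whose input RNA was well covered in B16 cells, out of 10453 genes listed in the deposited table. Members have a symbol made of Zfp, a number and at most trailing letters, and a mean of at least 100 normalized reads over the 4 input libraries. Of all 284 Zfp genes listed, 139 reached that level and 145 did not, and the members make up 1.82% of the 7633 genes at or above it. The members were thus chosen by their measured input, which is given only as a description. Just inside it were Zfp780b at 102.4, Zfp157 at 102.5 and Zfp593 at 103.2 normalized reads, and just outside it were Zfp324 at 98.4, Zfp961 at 97.3 and Zfp141 at 97.2. Normalized reads are not divided by gene length, so they compare a gene between libraries and not one gene with another.

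B16 is a mouse melanoma cell line, and 8 libraries were made from Mettl5 knockout (KO) cells, edited with CRISPR/Cas9, and from WT cells. Each genotype has 2 libraries of ribosome footprints (RPF, the mRNA pieces that ribosomes shield from nuclease) and 2 of input RNA. Cells of both genotypes received cycloheximide, which halts ribosomes, before lysis, and ribosomal RNA was removed in all libraries. METTL5 methylates an adenosine of the small ribosomal subunit RNA, and the comparison of genotypes asks how its loss changes RNA levels and ribosome loading. The labels do not say whether the KO cells are 1 clone or whether the libraries of a group came from separate cultures, so a p-value here reflects how far these libraries vary among themselves and may carry technical variation alone.

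Zfp genes encode zinc finger proteins, most of which bind DNA through arrays of fingers in which a pair of cysteines and a pair of histidines hold a zinc ion. Many carry a KRAB domain that recruits the co-repressor TRIM28, the histone methyltransferase SETDB1 and HP1 proteins to silence transposable elements and other targets. These genes often stand in runs of neighbours, and many give rare transcripts. A few bearers of the name act elsewhere: on ribosomes, in splicing or at the spindle.

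The listed genes held between 14835551 and 18823632 reads in KO input, between 11927567 and 14402586 in WT input, between 2279456 and 2344656 in KO footprints and between 2862517 and 3098930 in WT footprints. Mettl5 input was 75.7 and 95.7 normalized reads in KO libraries, against 114.1 and 110.6 in WT libraries (log2 fold change -0.40, limma adjusted p = 0.00162), and its footprint log2 fold change was 0.12 (adjusted p = 0.812). The RNA was thus lower in KO libraries but not lost, and the counts carry no check of the edited site. All 7 melanocyte markers were measured, with summed input between 78183.9 and 78499.6 in KO and between 69307.5 and 69708.7 in WT libraries. Of 3 leukocyte, 3 epithelial and 3 endothelial markers 1 each was listed, Cd68, Cdh1 and Vwf, at no more than 10.7 normalized reads in any input library. The 4 fibroblast markers summed to between 69.9 and 76.2 in KO and between 90.8 and 93.4 in WT input. Their part in the results was not tested. In these bulk libraries fewer cells of a kind and less RNA per cell cannot be told apart.

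Most Zfp members had few footprint reads for their input reads. In WT cells the median footprint-to-input ratio, the mean footprint value over the mean input value of a gene, was 0.507 over the 139 members and 0.939 over the 7633 genes at the same input level. In WT cells 119 members (85.6%) lay below a ratio of 1, against 52.6% of the genes at that level. Below 0.5 lay 69 members (49.6%), against 24.4% of those genes. The middle of the family, between its quartiles, spanned 0.267 to 0.744, and the whole family 0.0152 to 3.32. Both numbered WT pairs of libraries gave nearly the same family median, 0.470 and 0.472. No test is given, because the input that chose the members is also the denominator. A ratio near 1 is set by the scaling of each library and does not say how many ribosomes an mRNA carried. Whether input reads from untranslated parts of a transcript were counted is not given. Such reads would lower the ratio at the same ribosome load, and their part in it was not tested.

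**Figure D1:**
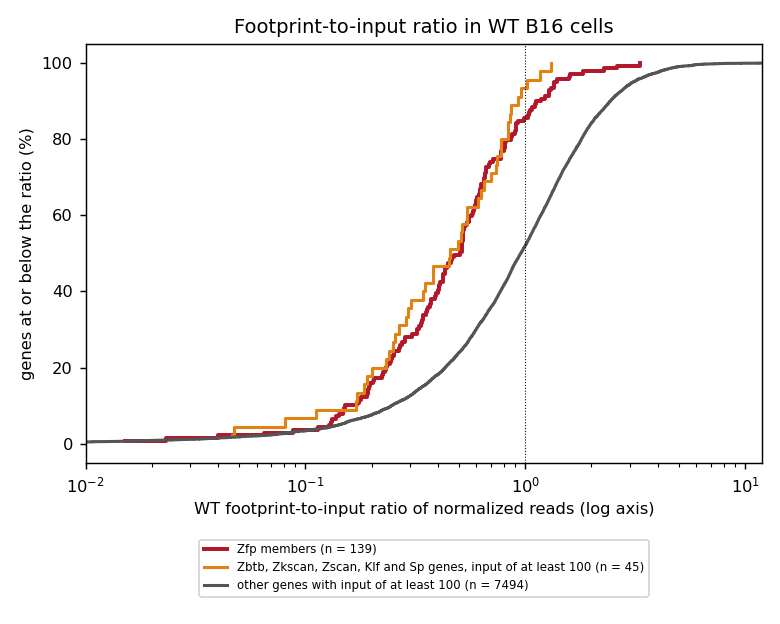
Cumulative share of genes (vertical axis, %) at or below a WT footprint-to-input ratio (horizontal log axis) for the Zfp members and the gene sets named in the legend. The members' curve lies left of that of genes at the same input level, with medians of 0.507 and 0.939.

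The low ratio was not limited to genes named Zfp. Of the other zinc finger families searched by symbol (Zbtb, Zkscan, Zscan, Klf and Sp) 45 genes reached the input level, with a median WT ratio of 0.453 and 93.3% of them below 1. Among the 145 Zfp genes below the level the median was 0.672. The 23 measured silencing partners of KRAB proteins had a median of 0.961.

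The members with the lowest WT ratio were Zfp239 (0.0152), Zfp664 (0.0233), Zfp329 (0.0401), Zfp780b (0.0650) and Zfp408 (0.0881). Zfp664 had 634.8 and 638.1 normalized input reads in KO, against 598.9 and 644.1 in WT libraries. Only 7 footprint reads were counted for it in both KO libraries together and 13 in both WT libraries. Input of Zfp664 overlapped between genotypes, and so few footprints allow no comparison of them. Zfp239 likewise had 4 footprint reads in KO and 4 in WT libraries. How reads with several matches were treated is not given, and this bears on genes with close relatives.

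At the other end Zfp277 had a WT ratio of 3.32, Zfp326 of 2.61, Zfp593 of 2.28, Zfp830 of 1.83 and Zfp654 of 1.60. Of these, Zfp326 belongs to a complex that links transcript elongation with splicing, Zfp830 is associated with the spliceosome, and the yeast relative of Zfp593 helps to mature the large ribosomal subunit. ZNF277, the human form of Zfp277, binds a protein of the small ribosomal subunit. Zfp277 footprints were 314.2 and 339.7 in KO, against 379.4 and 365.5 normalized reads in WT libraries. A list of 20 Zfp genes with well described functions, which mixes factors of ribosomes, RNA and ubiquitin with DNA-binding regulators, holds 17 members, and their median WT ratio was 0.659.

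The members with most input reads were Zfp106, Zfp207, Zfp706, Zfp638 and Zfp451, with mean values between 1137 and 1848, a measure that favours long transcripts. Their WT ratios spread widely. Zfp706, a small protein that represses Klf4 in mouse embryonic stem cells, had a WT ratio of 0.115, Zfp106, an RNA-binding protein, of 0.283, and Zfp207, a microtubule-binding protein that brings BUB3 to kinetochores, of 1.18. Over the 139 members log2 input and log2 WT ratio had a Pearson correlation of -0.113 and a Spearman correlation of -0.104, given as a description since input is part of the ratio.

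The 58 members that overlap another RefSeq gene had a median WT ratio of 0.430, the 22 that overlap a coding gene 0.379 and the 81 with no overlap 0.523. Strand use in the counting is not given, so reads of overlapping genes may be mixed. By position, 39 members stood in 16 runs of neighbouring members no more than 100000 bases apart, with a median WT ratio of 0.372, and the 100 others had 0.519. Near-identical neighbours can share reads, and the part of this in the ratio was not tested. Fewer reads also went with lower ratios by construction. The 40 members with under 20 reads in at least 1 footprint library (28.8%, against 9.04% of genes at that input level) had a median WT ratio of 0.239, and the other 99 had 0.604.

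Promoter sequences of the members were richer in GC than promoters of all genes. RefSeq starts (GRCm38.p6) were given for 110 members in 138 windows of the 250 bases before the start, with a median GC content of 58.8% and a median of 14 CpG dinucleotides, against 52.4% and 6 in all 32851 windows of the table. The GC box GGGCGG, searched on both strands, was in 52.2% of member windows and in 32.7% of all windows. CCAAT was in 38.4% and 33.8%, and CCGGAAG, the core of ETS factor sites, in 13.8% and 6.91%. All windows cover 27025 genes of any input level, and genes at the members' input level were not set apart. These differences may thus not be particular to Zfp genes. Split by the input result below, CCGGAAG was in 23.7% of the 38 windows of 25 members that fell, in 0 of the 16 windows of 11 members that rose and in 11.9% of the windows of members that passed neither way. GGGCGG was in 47.4%, 62.5% and 52.4% of the same windows, and CCAAT in 36.8%, 18.8% and 42.9%. A match of letters is a description and no evidence of binding. Shown here are the windows of the members with the largest rise and the largest fall of input RNA, Zfp319 on the minus strand at chr8:95331812-95332061 and Zfp618 on the plus strand at chr4:62965317-62965566 (GRCm38.p6), read 5′ to 3′ with matches to GGGCGG or its reverse complement in capitals.
Zfp319: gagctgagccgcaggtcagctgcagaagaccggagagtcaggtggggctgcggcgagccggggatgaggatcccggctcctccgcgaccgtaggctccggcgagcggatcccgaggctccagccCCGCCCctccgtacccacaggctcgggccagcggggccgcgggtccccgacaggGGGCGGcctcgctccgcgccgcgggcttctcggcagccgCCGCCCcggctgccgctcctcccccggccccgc
Zfp618: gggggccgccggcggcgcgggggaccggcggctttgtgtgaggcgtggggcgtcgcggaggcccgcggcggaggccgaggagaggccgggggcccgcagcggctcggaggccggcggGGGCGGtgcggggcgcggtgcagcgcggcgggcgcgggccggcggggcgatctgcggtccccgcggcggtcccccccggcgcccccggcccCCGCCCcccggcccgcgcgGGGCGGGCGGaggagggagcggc
The Zfp319 window holds 3 matches at 78.4% GC and the Zfp618 window 4 matches, partly overlapping, at 88.8% GC. The pair that moved furthest apart thus shared these letters.

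Input RNA of the family moved in both directions and by small steps. Of the 139 members 16 rose and 29 fell in KO cells at a limma adjusted p under 0.05, or 32.4%, against 36.4% of all genes tested (17.9% higher, 18.6% lower) and 43.7% of genes at the same input level (21.2% higher, 22.5% lower). The share of members that changed was thus no larger than the background. The median log2 fold change was 0.00 for the members and 0.00 for all genes, and the members ranged from -0.46 to 0.58. None of the 45 exceeded 1.5-fold, and 31 stayed under 1.2-fold.

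Zfp319 had the largest rise. Its input was 411.3 and 393.5 normalized reads in KO, against 279.7 and 259.3 in WT libraries. Both KO libraries lay well above both WT libraries, a log2 fold change of 0.58 ± 0.052 (SE; limma adjusted p = 6.68e-12). Zfp319 (ENSMUSG00000046556.7, chr8:95326131-95331811) overlaps the coding genes Tepp and Usb1, and reads of these genes could have been shared. Its footprints were 151.4 and 209.7 in KO, against 135.6 and 91.96 in WT libraries, which also did not overlap (log2 fold change 0.67, adjusted p = 0.0502, which missed the threshold). Its ratio was 0.368 and 0.533 in KO pairs, against 0.485 and 0.355 in WT pairs, so the ratio overlapped between genotypes.

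Zfp523, whose human form ZNF76 is a relative of the promoter-binding factor ZNF143, had an input of 281.8 and 278.6 in KO, against 207.1 and 218.7 in WT libraries (log2 fold change 0.40 ± 0.058, adjusted p = 7.23e-07). The KO libraries were again the higher pair. Its footprints were 42.9 and 65.0 in KO, against 59.3 and 55.2 in WT libraries, and overlapped. The next largest rises were those of Zfp768 (0.35, adjusted p = 0.000251), Zfp444, which carries a SCAN domain (0.33, adjusted p = 0.000231), Zfp646 (0.30, adjusted p = 1.43e-06) and Zfp180 (0.19, adjusted p = 0.0016).

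Zfp618, which binds 5-hydroxymethylcytosine together with UHRF2, fell furthest. Its input was 91.7 and 89.9 in KO, against 128.9 and 121.7 normalized reads in WT libraries. The libraries of the genotypes stood apart, with a log2 fold change of -0.46 ± 0.089 (adjusted p = 6.1e-05). Its footprints were 25.7 and 32.5 in KO, against 48.7 and 57.5 in WT libraries (-0.85, adjusted p = 0.139) and did not overlap, but missed the threshold. Zfp930 fell by 0.44 on the log2 scale, Zfp518a by 0.40, Zfp280c by 0.36, Zfp60 by 0.36 and Zfp654 by 0.28, with adjusted p between 1.95e-06 (Zfp518a) and 0.00114 (Zfp654). Zfp518a had an input of 178.5 and 184.8 in KO, against 243.0 and 238.0 in WT libraries, and footprints of 162.8 and 153.6 in KO, against 214.1 and 220.7 in WT libraries. Its input and footprints were both lower in each KO library, though the footprint difference missed the threshold (-0.46, adjusted p = 0.0871). These 12 named changes kept their side of the threshold when any 1 input library was left out, but with DESeq2 only 5 members rose and 13 fell, without Zfp180 and Zfp654.

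Input and footprints of a member did not always share a direction. Of the 29 members whose input fell 16 had a footprint log2 fold change above 0, and of the 16 whose input rose 11 had one above 0. In all, 92 members passed in none of the 3 comparisons (input, footprints, ratio), 47 in at least 1, and Zfp207 and Zfp800 in all 3. Matching counts over all genes are not given here, so these numbers describe the members alone.

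On chromosomes 7 and 6 the input of members moved the way of the other genes there. Chromosome 7 holds 30 members (21.6%, against 6.59% of genes at the same input level), and 8 of them rose and 1, Zfp60, fell, with a median log2 fold change of 0.09. Among the 462 other genes at that level on chromosome 7, 42.6% rose and 8.44% fell, with a median of 0.09. Chromosome 6 holds 12 members, of which 0 rose and 5 fell (median -0.06), beside 380 other genes of which 9.47% rose and 48.9% fell (median -0.11). Of the 16 members that rose 14 lie on a chromosome with a positive median of other genes, and of the 29 that fell 14 lie on one with a negative median. After subtracting that median 16 of the 16 and 28 of the 29 kept their direction. Hardly any could turn, since the smallest called change was 0.099 in size and the largest of these medians 0.106. These chromosomes were singled out after their values were seen, and what sets them apart was not tested.

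**Figure D2:**
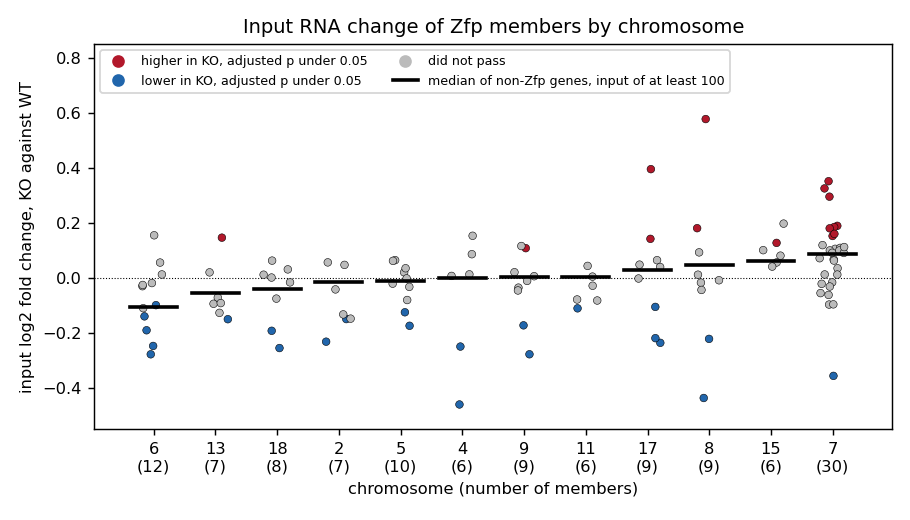
Input log2 fold change of Zfp members in KO against WT (vertical axis) on the chromosomes with at least 6 members, with the number of members in brackets. Black bars give the median of non-Zfp genes at the same input level, which is above 0 on chromosome 7 (0.09) and below 0 on chromosome 6 (-0.11).

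Footprints changed in few members. Zfp428 and Zfp800 rose and Zfp207 and Zfp593 fell, 4 of 139 or 2.88%. Of all genes 12.5% passed (6.3% higher, 6.22% lower), and of genes at the same input level 15.4% (8% higher, 7.35% lower). The members had a median of 76 footprint reads in KO and 102 in WT libraries (both libraries together), against 231 and 302 for genes at that level. The median standard error of their log2 fold change was 0.24, against 0.13. The smaller share of members that passed thus came with larger errors, and the part of depth in it was not tested. At an unadjusted p under 0.05 there were 21 of the 139 members, a smaller share than the 2132 of 7633 genes at that level. Median log2 fold changes were 0.02 over the members and 0.00 over all genes.

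Zfp428 footprints were 339.9 and 348.6 in KO, against 245.9 and 248.3 normalized reads in WT libraries. Both KO libraries lay above both WT libraries, with little spread within a genotype (log2 fold change 0.48 ± 0.13, adjusted p = 0.0187). Its input was 209.8 and 207.1 in KO, against 184.0 and 182.5 in WT libraries, and rose too (0.18, adjusted p = 0.0226). This input call was lost without WT input replicate 2 (0.0625), KO input replicate 1 (0.125) or KO input replicate 2 (0.0855). Zfp593 footprints were 171.4 and 147.7 in KO, against 228.9 and 227.6 in WT libraries (-0.52 ± 0.17, adjusted p = 0.0482). Its input overlapped between genotypes, and its ratio of 1.55 and 1.44 in KO pairs stood below 2.30 and 2.27 in WT pairs without passing the threshold (-0.60, adjusted p = 0.0609). Without WT footprint replicate 1 the adjusted p was 0.105 for Zfp428, 0.241 for Zfp593 and 0.217 for Zfp800, and without WT footprint replicate 2 it was 0.0914, 0.235 and 0.0925 for the same genes. Without KO footprint replicate 2 Zfp593 (0.154) and Zfp800 (0.293, log2 fold change 0.36 in place of 0.56) also missed the threshold, so only Zfp207 passed whichever library was left out.

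The footprint-to-input ratio, read as translational efficiency, rose in Zfp800, Zfp60, Zfp280d, Zfp91 and Zfp638 and fell in Zfp787 and Zfp207. These 7 of 139 are 5.04%, against 9.78% of all genes tested (5.11% higher, 4.66% lower) and 12.7% of genes at the same input level (6.79% higher, 5.87% lower), with a median standard error of 0.21 for members and 0.13 for those genes. The median log2 fold change of the ratio was 0.04 over the members and 0.01 over all genes tested. At an unadjusted p under 0.05 there were 22 of the 139 members, a smaller share than the 2289 of 7633 genes at the same input level. All 5 members whose ratio rose also had lower input RNA in KO libraries, and a change of input enters the ratio with the opposite sign. How often this holds over all genes is not given here, and the part of input in these rises was not tested. Across the 139 members the KO and WT log2 ratios had a Pearson correlation of 0.956 and a Spearman correlation of 0.960, where each gene's own level is shared by both.

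**Figure D3:**
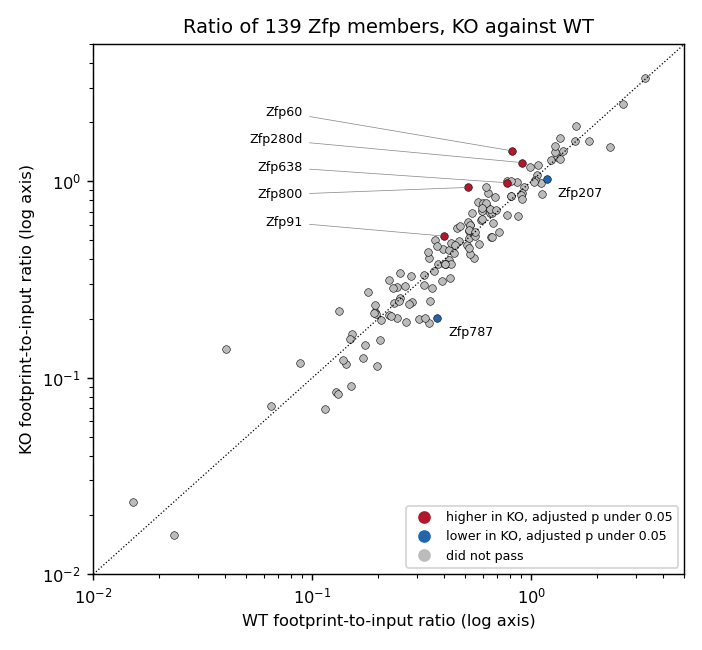
Footprint-to-input ratio of each of the 139 Zfp members in KO (vertical log axis) against WT cells (horizontal log axis), coloured by the limma result. Points follow the diagonal over the whole range of ratios, and the 7 members that passed lie beside it, 5 above and 2 below.

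Zfp800 (ENSMUSG00000039841.14, chr6:28210548-28398033) had an input of 239.2 and 267.7 in KO, against 311.6 and 302.3 normalized reads in WT libraries. Its footprints were 202.8 and 268.8 in KO, against 150.5 and 165.5 in WT libraries. Input was lower in both KO libraries (-0.28, adjusted p = 0.000154) and footprints were higher in both (0.56 ± 0.18, adjusted p = 0.0391). The ratio was 0.848 and 1.004 in KO pairs, against 0.483 and 0.548 in WT pairs, a log2 fold change of 0.84 ± 0.19 (adjusted p = 0.0221), or 1.79-fold. Behind it were 162 footprint reads in KO and 143 in WT libraries.

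Zfp60, a KRAB zinc finger gene (ENSMUSG00000037640.15, chr7:27731409-27751689), had an input of 140.5 and 138.3 in KO, against 174.0 and 183.5 in WT libraries. Its footprints were 197.1 and 200.9 in KO, against 139.9 and 151.7 in WT libraries (0.45, adjusted p = 0.115). Libraries of the genotypes did not overlap in either kind, and they stood apart in opposite directions. The ratio was 1.40 and 1.45 in KO pairs, against 0.804 and 0.827 in WT pairs (0.80 ± 0.15, adjusted p = 0.0104, 1.75-fold).

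The other 3 rises were smaller. Zfp638, which silences unintegrated retroviral DNA together with the HUSH complex in human cells, had ratios of 0.970 and 0.996 in KO pairs, against 0.761 and 0.786 in WT pairs (0.35 ± 0.059, adjusted p = 0.00614). Its footprints were 1088 and 1063 in KO, against 924.1 and 940.3 in WT libraries, and its input was 1122 and 1068 in KO, against 1214 and 1197 in WT libraries. Footprints were thus higher and input lower in both KO libraries. Zfp91, an E3 ubiquitin ligase of the alternative NF-kappaB pathway, had ratios of 0.518 and 0.532 in KO pairs, against 0.433 and 0.369 in WT pairs (0.39 ± 0.099, adjusted p = 0.0344). Its input fell (-0.27, adjusted p = 3.47e-09), while its footprints were 445.6 and 472.6 in KO, against 451.4 and 393.1 in WT libraries, and overlapped. Zfp280d had ratios of 1.28 and 1.21 in KO pairs, against 0.846 and 0.969 in WT pairs (0.46 ± 0.13, adjusted p = 0.0484).

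Zfp207, the member with the most footprint reads among the 7 (969 in KO and 1575 in WT libraries), was lower in every measure. Its footprints were 1431 and 1382 in KO, against 1746 and 1727 normalized reads in WT libraries (-0.30 ± 0.058, adjusted p = 0.000585). Its input was 1364 and 1372 in KO, against 1490 and 1465 in WT libraries (-0.11, adjusted p = 0.000787), a smaller gap than that of the footprints. The ratio was 1.05 and 1.01 in KO pairs, against 1.17 and 1.18 in WT pairs (-0.19 ± 0.049, adjusted p = 0.0353). Zfp787 had ratios of 0.205 and 0.200 in KO pairs, against 0.385 and 0.361 in WT pairs (-0.86 ± 0.22, adjusted p = 0.0358), from only 22 footprint reads in KO and 51 in WT libraries.

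**Figure D4:**
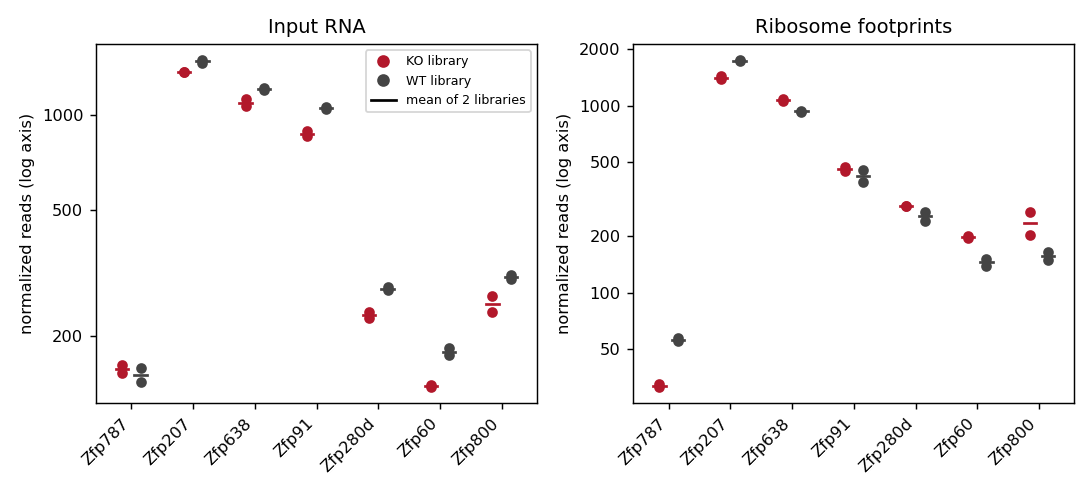
Normalized reads (vertical log axes) of the 7 members whose ratio changed, in input and in footprint libraries, with KO points left of WT points and a line at the mean of 2 libraries. Input of Zfp800, Zfp60, Zfp280d, Zfp91 and Zfp638 is lower in KO, and Zfp207 footprints fell in KO.

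These calls rested on few libraries. Leaving out WT input replicate 1, WT input replicate 2, KO input replicate 1 or KO input replicate 2 left Zfp638 alone past the threshold, with adjusted p between 0.0216 and 0.047. Without WT footprint replicate 1 Zfp207 (0.0579), Zfp280d (0.0669) and Zfp800 (0.0625) missed it, and without KO footprint replicate 2 Zfp91 (0.0559) did. Zfp800, Zfp60, Zfp91 and Zfp638 passed with edgeR, with DESeq2 and with libraries weighted by kind, while Zfp207, Zfp280d and Zfp787 passed neither with DESeq2 nor with that weighting. The authors' deposited table calls 2 members Up, Zfp800 (log2 fold change 0.86, adjusted p 0.00121) and Zfp60 (0.81, adjusted p 0.0041), and 1 Down, Zfp706 (-0.71, adjusted p 0.0204), where 0.899% of all genes were Up and 1.75% Down. The ratio of Zfp706 was 0.0756 and 0.0633 in KO pairs, against 0.0914 and 0.138 in WT pairs, and the fit used here gave -0.69 with an adjusted p of 0.0827.

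Of the 17 members with well described functions 2 rose and 5 fell in input (41.2%, against 43.7% of genes at the same input level). Zfp207 and Zfp593 fell in footprints (11.8%, against 15.4%). Both shares were near those of all genes at that level. In the ratio Zfp91 and Zfp638 rose and Zfp207 fell, a larger share from only 3 members (17.65%, against 12.7%). Zfp598, the E3 ubiquitin ligase that marks collided ribosomes, had an input of 588.8 and 566.6 in KO, against 534.7 and 512.3 normalized reads in WT libraries (0.14, adjusted p = 0.0045). Its footprints were 345.7 and 360.4 in KO, against 313.7 and 383.9 in WT libraries, and its ratio overlapped between genotypes. Zfp346, which binds double-stranded RNA, rose in input (0.15, adjusted p = 0.00835). Zfp106 (-0.15, adjusted p = 4.21e-06) and Zfp148, a factor that binds GC-rich promoters (-0.14, adjusted p = 0.000963), fell in input beside Zfp91, Zfp638 and Zfp207. The rises were the less steady of these calls: Zfp598 missed the threshold without WT input replicate 2 (0.0559) or KO input replicate 1 (0.0861), and Zfp346 without WT input replicate 1 (0.13, log2 fold change 0.10) or KO input replicate 1 (0.0592).

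Zfp622, whose yeast relative acts late in the assembly of the large ribosomal subunit, passed in no comparison. The Zfp622 ratio was 1.35 and 1.24 in KO pairs, against 1.25 and 1.44 in WT pairs, and its log2 fold change was -0.05 ± 0.12. Nor did Zfp281, Zfp326, Zfp568, Zfp703, Zfp809, Zfp830 or Zfp219 pass in any comparison. Zfp568 and Zfp809 are KRAB silencers, of an Igf2 transcript and of retroviral elements, and their input log2 fold changes were 0.11 and -0.01. The largest ratio difference of these was that of Zfp219, 0.311 and 0.318 in KO pairs, against 0.210 and 0.239 in WT pairs, which did not overlap yet missed the threshold (0.48, adjusted p = 0.126). Zfp36, Zfp57 and Zfp423 of the list were measured below the input level.

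Of the co-repressors through which KRAB zinc finger proteins act, more fell than rose in input. The 24 symbols listed stand for 23 genes, since Fam208a and Tasor name the same gene, and all 23 were measured. In input 2 rose and 12 fell (60.9%, against 43.7% of genes at the input level of 100 and 36.4% of all genes tested), with a median log2 fold change of -0.07. Of genes at that level 21.2% were higher and 22.5% lower, and of all genes tested 17.9% and 18.6%. Trim28, the scaffold that KRAB domains bind, rose in input (0.08, adjusted p = 0.000571), in footprints (0.37, adjusted p = 6.2e-11) and in ratio (0.29, adjusted p = 0.000426). Cbx5, which encodes HP1 alpha, fell in all 3 (-0.20, -0.71 and -0.51 on the log2 scale). The ratio rose in 5 of the 23 and fell in Cbx5 (26.1%, against 12.7% and 9.78%), and Fam208a, a HUSH subunit, had the largest rise (0.75, adjusted p = 0.00594). Their RNAs have far more reads than those of the members, with medians of 642 footprint reads in KO and 825 in WT libraries, and whether the 2 sets of genes differ was not tested.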

How the data were processed

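Footprint and input libraries of KO and WT cells (8 libraries, 2 in each of 4 groups) were grouped by their labels. The authors deposited 1 table of normalized read counts per gene, a signal unit, with 0 columns left unmapped. From the values, 100% are whole multiples of 1 read within 0.001 of a read. Per the file headers, the table also holds the authors' log2 fold changes of translational efficiency, each with a p-value, an adjusted p-value and a call. The submitters' processing notes name Bowtie and mm10. Not given in the sources used here are counter, annotation, strand and the treatment of reads with several matches.

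limma 3.58.1 (R 4.3.3) with a trend of variance on level was run on log2(value + 1), which understates changes of low genes, for genes with a mean of at least 1, input and footprints apart (2 against 2), two-sided, Benjamini-Hochberg adjusted over all genes, threshold 0.05. All 139 members passed that filter. The ratio (translational efficiency) was tested as a genotype-by-kind interaction in all 8 libraries with 1 variance per gene, so errors may be too small for members with few footprints. The steps were tested on simulated data with 2-fold changes in some genes. Of these changes 97.5% were recovered in input, 68% in footprints and 46.5% in the ratio, with 9, 1 and 4 false calls. The changed genes were drawn from all levels, so these shares are not those of the members. Alternatives were pseudocount 0.5, no filter, at least 20 reads in every library, no trend, centring, a replicate block, edgeR 4.0.16 (TMM) and DESeq2 1.42.0 on recovered reads, both kinds fitted together, weights by kind, and each library left out.

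Members and lists were chosen with earlier results of these data known. Named are the 6 largest and 6 smallest changes past the threshold without overlap of libraries in each comparison, the 5 highest and 5 lowest WT ratios, the 5 highest inputs, 3 genes on each side of the level, and a list of members with well described functions. Other zinc finger families were matched by symbol, a number and at most 1 letter, which leaves out Zbtb8os, no zinc finger gene. The planned grouping of members by protein class was not run, since no protein sequences were used here. Coordinates, overlaps and promoters are from RefSeq (GRCm38.p6), where all 139 symbols were found, and all 139 gene IDs matched the name table.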

Additional observations from a re-analysis of the deposited data

How the results depend on the processing

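Depth limits what footprints can show: 40 of 139 members have under 20 reads in a footprint library, and a difference that did not pass may be absent or too small to detect at this depth. For the named genes 365 of the alternative values kept direction and side of the threshold, 102 kept direction and missed the threshold, and 0 reversed. Reversals could hardly arise, since most of these changes were picked for libraries without overlap. Moreover, no trend, the replicate block, both kinds fitted together and weights by kind leave the log2 fold change unchanged. For input (16 higher and 29 lower members) limma without trend gave 4 and 11, DESeq2 5 and 13, and fitting both kinds of library together 0 and 2, and leaving out 1 library gave 12 to 13 higher and 20 to 24 lower. For footprints (2 and 2) limma without trend gave 0 and 0, DESeq2 0 and 1 among the 30 members to which it gives an adjusted p, the fit of both kinds together 12 and 13, and edgeR and the filter of at least 20 reads each 4 higher. Leaving out 1 library gave 0 to 4 higher and 1 to 4 lower. For translational efficiency (5 and 2) limma without trend gave 1 and 1, edgeR 4 lower, DESeq2 1 lower, and leaving out 1 library 1 to 8 higher and 0 to 10 lower. The shares called over all genes shifted as well. In input 36.4% became 12.2% without trend, 16.5% with DESeq2 and 7.94% with both kinds together. In footprints 12.5% became 0%, 8.87% and 22.1% in the same order. For translational efficiency 9.78% became 1.27% without trend, 13% with edgeR and 11.9% with DESeq2. The shifts are thus not particular to the members, and their causes were not tested. The median WT log2 ratio of members minus that of all genes was -0.98, and it was -1.09 and -1.07 in the numbered pairs and -0.89 against genes at the same input level.

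Numbered libraries of different groups did not deviate together (correlations of deviations between -0.0294 and 0.00747). Libraries of a group differed by little more than counting noise (chi-square per degree of freedom 1.1 to 1.21). These correlations therefore cannot tell whether the numbers pair the libraries. With a replicate block input gave 18 higher and 29 lower members, footprints 4 and 3, and translational efficiency 4 and 2. Only 4 of the 7 members with a changed ratio are among the last, since Zfp207 (adjusted p = 0.0583), Zfp280d (0.0822) and Zfp787 (0.0786) missed the threshold there.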

Other observations

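Of the 145 Zfp genes below the input level 7 rose and 7 fell in input (9.66%, against 36.4% of all genes tested). Of these genes 82.8% have under 20 reads in a footprint library, against 24.9% of all genes, and the median standard error of their footprint log2 fold change was 0.44, against 0.17. In footprints only Zfp955a passed, and it fell (log2 fold change -0.66, limma adjusted p = 0.0465). This is 0.69% of the 145, against 12.5% of all genes. In the ratio only Zfp119a passed, also 0.69%, against 9.78% of all genes tested. The ratio of Zfp119a rose (1.72, adjusted p = 0.0477), from 0.0964 in WT to 0.414 in KO cells. Its mean input was 21.99 normalized reads, and 1 read was worth 2.12 or 2.3 normalized reads in WT footprint libraries. The WT ratio of Zfp119a thus rests on very few footprint reads.

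Among the 69 genes of the other zinc finger families, over all input levels, 10 rose and 15 fell in input (36.2%, near the 36.4% of all genes tested). In footprints only 1 of them passed (1.45%, against 12.5% of all genes) and in the ratio 3 (4.35%, against 9.78% of all genes tested). Klf10, a TGF-beta response gene, rose in footprints (0.96, adjusted p = 0.00577), and its ratio was 1.66 in KO and 0.813 in WT cells (1.02, adjusted p = 0.0176). The ratio of Sp4 was 0.728 in KO and 0.349 in WT cells (1.03, adjusted p = 0.0341) and that of Klf3 was 1.01 in KO and 0.747 in WT cells (0.43, adjusted p = 0.0485).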
